A study of Mus musculus with 90 samples.

Results

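The mouse mitochondrial chromosome carries 37 genes, and all of them were among the 24475 genes of each deposited count table. They comprise 13 mRNAs, 2 rRNAs and 22 tRNAs, and the classes are kept apart here. The genes were taken by their place on the mitochondrial chromosome. As a set they were chosen by the measured levels of the rRNAs, which had moved in opposite directions with knockdown of protein kinase A (PKA) and with knockdown of Prkar1a, a regulatory subunit that holds PKA inactive. Values of those contrasts are therefore given as a description, with no test.

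The series holds 90 mouse liver RNA-seq libraries from 2 experiments, in 9 groups of 10. Per the design text, mice were injected with AAV8, a viral vector with a strong preference for liver, that expressed shRNA (short hairpin RNA). What the control vectors carry is not stated. Experiment 1 had a Control group and knockdown (KD) groups for Gcgr, the glucagon receptor, for Gnas, the stimulatory G protein alpha subunit that couples it to cAMP production, for PKA, the main cAMP-activated kinase, and for Epac2, a second cAMP sensor. Experiment 2 combined a control AAV or a Prkar1a KD AAV with a Control mAb (monoclonal antibody) or a Gcgr mAb, which gave the groups Control AAV with Control mAb, Control AAV with Gcgr mAb, Prkar1a KD with Control mAb and Prkar1a KD with Gcgr mAb. The sources used here do not give strain, sex, age, vector dose or time after injection. The labels do not say that the samples of a group came from separate mice, so a p-value covers only the spread between samples, which may be technical.

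Levels are given as CPM, counts relative to a library total scaled by the trimmed mean of M values (TMM). Total counts were 20.8 M to 33.7 M per library in experiment 1 and 8.9 M to 19.5 M in experiment 2. A gene was called where edgeR's quasi-likelihood F test gave a p below 0.05 after Benjamini-Hochberg adjustment over all tested genes of its experiment. The targeted genes were low in their groups. Gcgr was 45.7 ± 6.0 CPM (SD, n = 10) in Gcgr KD against 171 ± 22 in Control, Gnas was 51.9 ± 19 in Gnas KD against 361 ± 20, and Rapgef4, which encodes Epac2, was 9.49 in Epac2 KD against 91.0. The labels name no PKA subunit. In PKA KD the catalytic subunit genes Prkaca and Prkacb stood at 11.5 ± 5.1 and 9.61 ± 2.2 CPM, against 95.5 ± 6.2 and 40.2 ± 2.8 in Control. Prkar1a fell by 1.94 on the log2 scale with Control mAb and by 1.74 with Gcgr mAb. The 18 hepatocyte markers were all detected and summed to medians of 78600 to 148000 CPM per group, with the 2 lowest medians in the Prkar1a KD groups (78600 and 84400, against 126000 and 116000 in their controls).

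Mitochondrial DNA is transcribed from both strands as long precursors. The heavy-strand precursor holds both rRNAs, 12 mRNAs and 14 tRNAs, and the light-strand precursor holds mt-Nd6 and 8 tRNAs. The tRNAs lie between the larger genes, and nucleases cut them out (the tRNA punctuation model), which frees the mRNAs and rRNAs on either side. Mitochondrial mRNAs then receive short poly(A) tails, which in several mRNAs also complete the stop codon, and the rRNAs are known to carry very short tails of adenosine. The rRNAs form the mitochondrial ribosome, and the mRNAs encode core subunits of respiratory complexes I, III and IV and of ATP synthase. Liver is rich in mitochondria, and hepatocytes depend on them for gluconeogenesis, urea synthesis and fatty acid oxidation.

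The junctions below show the end of the heavy-strand precursor where both rRNAs lie. Sequences are from GENCODE transcripts on GRCm38, mitochondrial chromosome (MT), plus strand, with the tRNA in capitals and 30 bases of the gene on either side. In the first, at MT:995-1123, mt-Tv (tRNA-Val) separates mt-Rnr1 from mt-Rnr2. In the second, at MT:2646-2780, mt-Tl1 (a tRNA-Leu) separates mt-Rnr2 from mt-Nd1.
mt-Rnr1, mt-Tv, mt-Rnr2: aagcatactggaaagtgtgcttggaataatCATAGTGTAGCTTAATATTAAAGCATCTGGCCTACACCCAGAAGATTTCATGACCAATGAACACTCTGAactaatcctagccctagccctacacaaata
mt-Rnr2, mt-Tl1, mt-Nd1: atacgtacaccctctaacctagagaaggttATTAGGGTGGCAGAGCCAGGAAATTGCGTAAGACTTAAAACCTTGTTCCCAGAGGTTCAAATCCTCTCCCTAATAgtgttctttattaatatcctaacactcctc

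mt-Ti, mt-Tq, mt-Tm and mt-Tw lie near that end and are turned to below. They are shown because they share bases with a neighbour or lie against it, so a read across the junction can be assigned to either gene. mt-Ti (tRNA-Ile, MT:3706-3774, plus strand) and mt-Tw (tRNA-Trp, MT:4950-5016, plus strand) each share 2 bases with the mRNA before them, mt-Nd1 and mt-Nd2, which are in capitals. mt-Tq (tRNA-Gln, MT:3772-3842, minus strand) has 3 bases, in capitals, opposite mt-Ti. mt-Tm (tRNA-Met, MT:3845-3913, plus strand) ends at the base before mt-Nd2.
mt-Ti: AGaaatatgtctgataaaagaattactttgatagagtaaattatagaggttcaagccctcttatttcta
mt-Tq: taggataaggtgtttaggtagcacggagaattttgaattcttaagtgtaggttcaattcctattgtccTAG
mt-Tm: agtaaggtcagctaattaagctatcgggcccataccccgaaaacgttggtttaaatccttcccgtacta
mt-Tw: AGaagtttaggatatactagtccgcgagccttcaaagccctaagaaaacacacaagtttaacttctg

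The last 20 bases of 4 mRNA genes show how they end. Of the 13 mRNA genes, 10 end in a full stop codon, as mt-Co1 does, and 3 (mt-Co3, mt-Nd4 and mt-Cytb) end in a lone T that the tail extends to a stop codon. Capitals mark the stop codon or that T. The regions on the plus strand are MT:6853-6872, MT:9371-9390, MT:11525-11544 and MT:15269-15288.
mt-Co1: cctatgtaaaagtaaaaTAA
mt-Co3: catttattgatgaggatctT
mt-Nd4: aattacaggcctgacaataT
mt-Cytb: aatactaaaattatatccaT

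Of the 37 genes, 19 passed the filter on low counts in experiment 1 (13 mRNAs, 2 rRNAs and 4 tRNAs) and 27 passed in experiment 2 (13 mRNAs, 2 rRNAs and 12 tRNAs). In the control groups the mRNAs held 11.7% ± 2.1 (SD, n = 10) of the total count in experiment 1 and 16.7% ± 1.7 in experiment 2. The rRNAs held 0.164% ± 0.021 and 0.571% ± 0.084, and the tRNAs 0.00264% and 0.00987%. All libraries were purified with mRNA beads, so an rRNA or tRNA level is the part recovered after that step. A change in its amount, in its tail and in the carry-over of RNA cannot be told apart here, nor can fewer cells of a type and less RNA per cell. Levels of the 2 experiments come from separate tables and were not compared with a test.

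**Figure D1:**
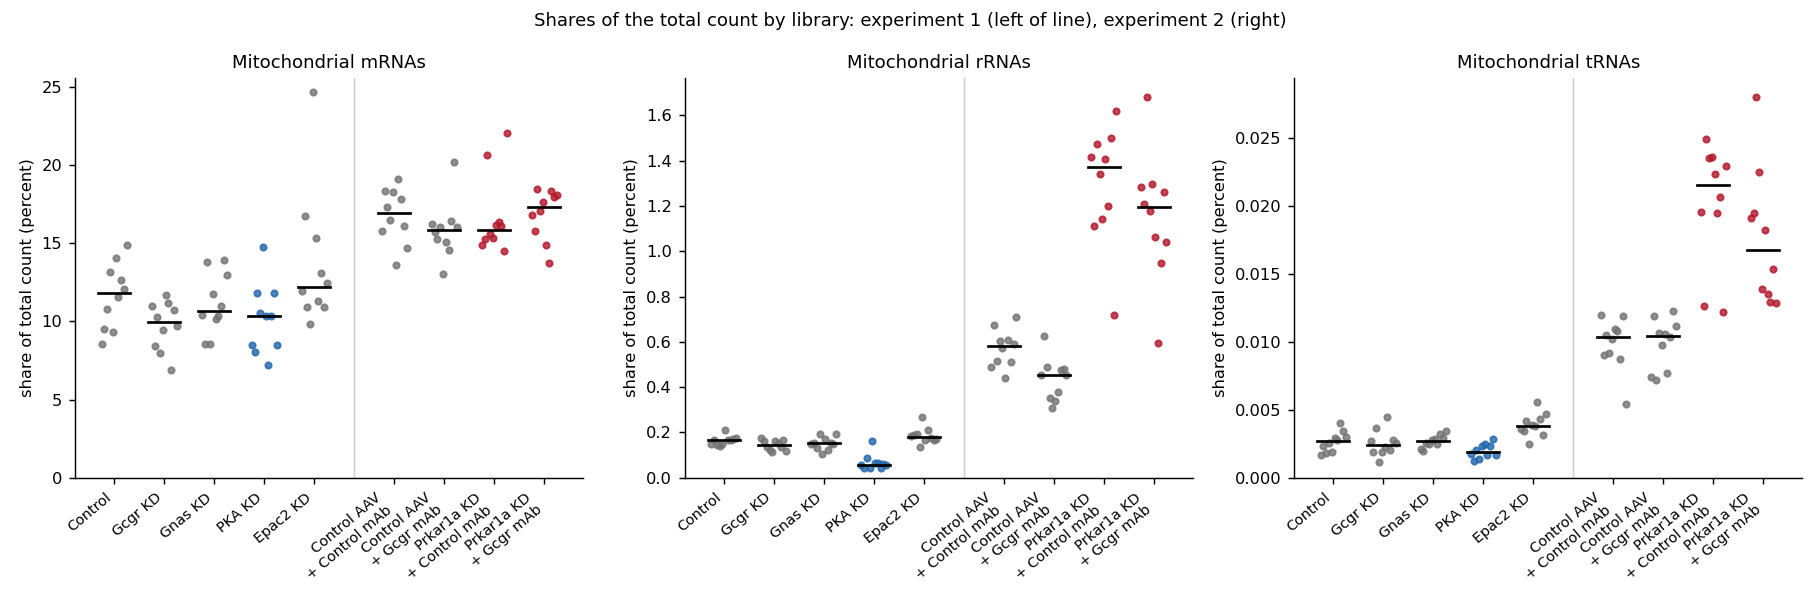
Share of the total count (percent, vertical axes) held by mitochondrial mRNAs, rRNAs and tRNAs in each library (points, in replicate order) with the group median (bar), for the 5 groups of experiment 1 and the 4 groups of experiment 2. The PKA KD libraries (blue) hold 0.0417% to 0.161% in rRNAs and the Control libraries 0.14% to 0.213%. These shares overlap through 1 PKA KD library (replicate 5), and the mRNA shares overlap too. Among the Epac2 KD libraries, 1 stands at 24.6% in mRNAs.

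Per kilobase of gene, the order of levels within the Control group of experiment 1 ran from mt-Atp8 (37940 ± 13030 CPM per kb, SD, n = 10), the short ATP synthase gene, through mt-Co1 (22800 ± 3966), which encodes the catalytic subunit of complex IV, to mt-Nd6 (225 ± 74), the mRNA of the light strand. mt-Atp8 and mt-Atp6 overlap by 43 bases and mt-Nd4l and mt-Nd4 by 7, so their levels depend on how shared reads were assigned. mt-Co2, mt-Nd4l and mt-Atp6 did not stand apart from each other (15330, 14610 and 13750 CPM per kb, with mt-Co2 above mt-Nd4l in 7 of 10 libraries and mt-Nd4l above mt-Atp6 in 4), nor did mt-Nd4, mt-Nd2 and mt-Nd1 (7101, 6956 and 6478). Both rRNAs lay far below all mRNAs other than mt-Nd3 and mt-Nd6, at 857 ± 142 CPM per kb for mt-Rnr1 and 548 ± 74 for mt-Rnr2. mt-Rnr2 and mt-Nd3 (615 ± 195) overlapped. In the Control AAV with Control mAb group the ends of the order were the same genes, mt-Atp8 (48290 ± 9526 CPM per kb) and mt-Nd6 (1023 ± 706). There mt-Nd3 stood at 5740 ± 991, in the range of mt-Nd5 (5275 ± 1049), and the rRNAs stood below both, at 2827 ± 664 and 2087 ± 244.

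The mean rRNA share of the total count ran from 0.0682% in PKA KD to 0.186% in Epac2 KD in experiment 1, and in experiment 2 from 0.435% in Control AAV with Gcgr mAb to 1.29% in Prkar1a KD with Control mAb. mt-Rnr1 (MT:70-1024, plus strand) is the RNA of the small ribosomal subunit and mt-Rnr2 (MT:1094-2675, plus strand) that of the large one. In experiment 1, mt-Rnr1 lay between 646 and 1102 CPM in Control (median 783), between 122 and 601 in PKA KD (median 167), and between 653 and 1603 in Epac2 KD (median 874). Gcgr KD (557 to 819, median 667) and Gnas KD (461 to 997, median 629) overlapped Control. Every PKA KD library lay below every Control library for mt-Rnr1, as did 3% of all tested genes. For mt-Rnr2 the PKA KD libraries lay between 270 and 964 CPM (median 398) and the Control libraries between 747 and 1092 (median 873), and 9 of 10 PKA KD libraries were below the Control median.

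As a description of the contrast that chose the set, mt-Rnr1 fell by 1.91 ± 0.21 and mt-Rnr2 by 0.97 ± 0.15 on the log2 scale (± SE) in PKA KD, both called lower, where 14.8% of all tested genes were called lower, and nothing is read from that count. 1 library, replicate 5 of PKA KD, held the highest value of both rRNAs, and without it the changes were -2.23 ± 0.17 and -1.18 (chosen after its values were seen). The rRNAs did not move to the same extent. mt-Rnr1 counts per mt-Rnr2 count were 0.468 ± 0.090 (SD, n = 10, range 0.356 to 0.623) in PKA KD and 0.943 ± 0.074 (0.853 to 1.04) in Control, and the groups did not overlap. Counts of both rRNAs per 100 mitochondrial mRNA counts were 0.657 ± 0.21 in PKA KD and 1.43 ± 0.22 in Control.

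**Figure D2:**
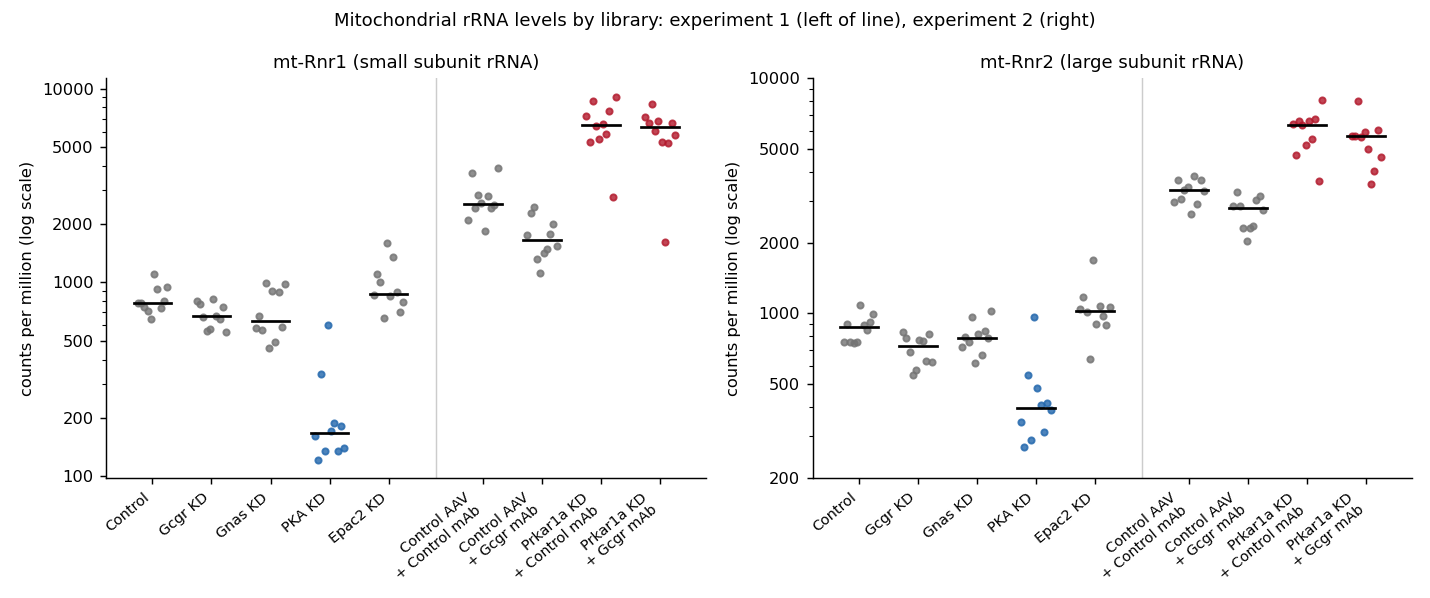
Levels of mt-Rnr1 and mt-Rnr2 (CPM, log axes) in each library (points) with the group median (bar), for the 5 groups of experiment 1 and the 4 groups of experiment 2. For mt-Rnr1 the PKA KD libraries (blue, 122 to 601 CPM) lie below all Control libraries (646 to 1102). The lowest library of each Prkar1a KD group (2749 with Control mAb, 1609 with Gcgr mAb) lies among the Control AAV libraries.

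In experiment 2 the rRNAs stood higher in Prkar1a KD. mt-Rnr1 lay between 1841 and 3870 CPM (median 2543) in Control AAV with Control mAb and between 2749 and 9090 (median 6511) in Prkar1a KD with Control mAb. With Gcgr mAb it lay between 1123 and 2463 CPM (median 1651) in Control AAV and between 1609 and 8330 (median 6315) in Prkar1a KD. Both pairs of groups overlapped, each through 1 library alone. In the first this was replicate 9 of Prkar1a KD with Control mAb, since the next library stood at 5307 CPM. In the second it was replicate 7 of Prkar1a KD with Gcgr mAb, since the next stood at 5229 CPM. mt-Rnr2 lay between 2655 and 3827 CPM (median 3339) and between 3664 and 8076 (median 6359) in the Control mAb groups, and between 2033 and 3276 (median 2813) and between 3561 and 8004 (median 5662) in the Gcgr mAb groups. With Gcgr mAb the mt-Rnr2 values did not overlap, as held for 6% of all tested genes in that direction.

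As a description of these contrasts, mt-Rnr1 rose by 1.27 ± 0.19 and mt-Rnr2 by 0.86 ± 0.12 on the log2 scale (± SE) with Prkar1a KD under Control mAb, both called, where 29.3% of all tested genes were called higher. Under Gcgr mAb the rises were 1.79 ± 0.19 and 1.01 ± 0.12, both called, where 26.5% were called higher, and nothing is read from these counts. Without replicate 7 of Prkar1a KD with Gcgr mAb the mt-Rnr1 rise was 1.89. mt-Rnr1 counts per mt-Rnr2 count were 0.815 ± 0.15 and 0.631 ± 0.091 in Control AAV with Control mAb and Gcgr mAb and 1.07 ± 0.14 and 1.08 ± 0.24 in the corresponding Prkar1a KD groups. Counts of both rRNAs per 100 mitochondrial mRNA counts were 3.43 ± 0.57 and 2.75 ± 0.54 in the Control AAV groups and 7.77 ± 1.3 and 6.81 ± 1.4 in the Prkar1a KD groups.

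The other contrasts were not used to choose the set, but they share libraries with those that were. Of these other contrasts, the Gcgr mAb in Control AAV moved an rRNA. Its groups are the baselines of the Prkar1a KD contrasts above, so its rRNA p-values are not independent of the choice. mt-Rnr1 fell by 0.65 ± 0.19 on the log2 scale (edgeR, adjusted p = 0.0242), with 10 of 10 Gcgr mAb libraries below the Control mAb median, although the groups overlapped (1123 to 2463 against 1841 to 3870 CPM). The adjusted p lay between 0.0109 and 0.0345 over the 8 settings run. mt-Rnr2 had a log2 fold change of -0.29 ± 0.12 (adjusted p = 0.117, edgeR). 1 of 2 rRNAs was thus called, beside 8.19% of all tested genes (5.27% lower). In Prkar1a KD the antibody gave mt-Rnr1 a log2 fold change of -0.13 ± 0.19 and mt-Rnr2 one of -0.14 ± 0.12 (edgeR, adjusted p = 0.949 and 0.885). In that contrast edgeR, DESeq2 and limma-voom called 0 of 12847 genes, 0% of those tested, with 846, 902 and 791 genes at an unadjusted p under 0.05. The difference between the antibody's effects was itself tested as the interaction, which was 0.52 ± 0.27 for mt-Rnr1 (edgeR, adjusted p = 0.256) and 0.15 ± 0.17 for mt-Rnr2 (0.639), so a difference was not shown. The interaction was called for 4.08% of all tested genes. For mt-Rnr1 it was 0.64 (0.0751) without replicate 7 of Prkar1a KD with Gcgr mAb and 0.43 (0.336) without replicate 9 of Prkar1a KD with Control mAb, within a range of 0.0751 to 0.336 when these leave-outs are taken with the settings run.

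In experiment 1 neither rRNA was called with Gcgr KD, Gnas KD or Epac2 KD by edgeR, DESeq2 or limma-voom in a fit over all groups. In a model of only Gcgr KD and Control, mt-Rnr2 was called lower (edgeR, log2 fold change -0.30, adjusted p = 0.035, range 0.035 to 0.277 over 8 settings, called in 1). The share of all tested genes called was 7.23%, 15.2% and 4.56%. At an unadjusted p under 0.05, 1 rRNA passed with Gcgr KD and 0 with Gnas KD and Epac2 KD in edgeR. With Gcgr KD the log2 fold changes were -0.26 ± 0.20 for mt-Rnr1 and -0.30 ± 0.15 for mt-Rnr2 (edgeR, adjusted p = 0.479 and 0.225). With Gnas KD they were -0.20 ± 0.20 and -0.12 ± 0.15 (0.562 and 0.655), and with Epac2 KD 0.26 ± 0.20 and 0.27 ± 0.15 (0.58 and 0.36). mt-Rnr2 was below the Control median in 10 of 10 Gcgr KD libraries. All 4 knockdowns of experiment 1 share the same 10 Control libraries, and the contrasts of experiment 2 share groups in the same way, so their values are set side by side only.

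Nuclear RNAs without a poly(A) tail give a reading of how much such RNA the libraries held. Of 121 listed, such as small nucleolar RNAs and the RNA subunits of ribonucleases, 3 were tested in experiment 1 (Rmrp, Rpph1 and Snord104) and 7 in experiment 2. In PKA KD 0 of 3 were called by edgeR, DESeq2 or limma-voom, and 0 passed an unadjusted p of 0.05, where 32.4% of all tested genes were called. With Prkar1a KD 1 of 7 was called higher under Control mAb and 0 of 7 under Gcgr mAb, where 29.3% and 26.5% of all tested genes were called higher. With only 3 and 7 genes tested, these counts do not tell whether such RNA changed. In experiment 1 their summed levels had medians of 4.89 CPM in Control and 4.02 in PKA KD. The medians were 4.08 CPM in Gcgr KD, 4.1 in Gnas KD and 4.32 in Epac2 KD. In experiment 2 the medians were 9.47 CPM in Control AAV with Control mAb, 10.8 with Gcgr mAb, and 12.5 and 11.5 in the corresponding Prkar1a KD groups. Their part in the rRNA values was not tested.

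In PKA KD and Prkar1a KD the 13 mRNAs had smaller changes than the rRNAs, and the genes did not change alike. In PKA KD, as a description, all 13 had a negative log2 fold change (median -0.38, against 0.01 for all tested genes). Of the mRNAs 4 were called lower, where 14.8% of all tested genes were called lower (32.4% in either direction). These were mt-Cytb (-0.61 ± 0.18), the sole mitochondrially encoded subunit of complex III, and the complex I subunits mt-Nd3 (-0.59 ± 0.22), mt-Nd2 (-0.48 ± 0.18) and mt-Nd1 (-0.41 ± 0.14). The last 2 are the mRNAs that follow the rRNAs on the chromosome, and they were not called in a model of only these groups. Levels overlapped in each case, as for mt-Nd1, at 2946 to 8573 CPM (median 3905) in PKA KD and 4845 to 7791 (median 6330) in Control, and for mt-Cytb, at 5749 to 14320 (median 8496) and 9592 to 19350 (median 13530). The smallest changes were those of mt-Nd5 (-0.07), mt-Nd6 (-0.13), mt-Co2 (-0.14), mt-Nd4l (-0.16) and mt-Co1 (-0.18). mt-Co1 lay between 23320 and 41940 CPM (median 32580) in PKA KD and between 27230 and 46380 (median 34790) in Control.

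**Figure D3:**
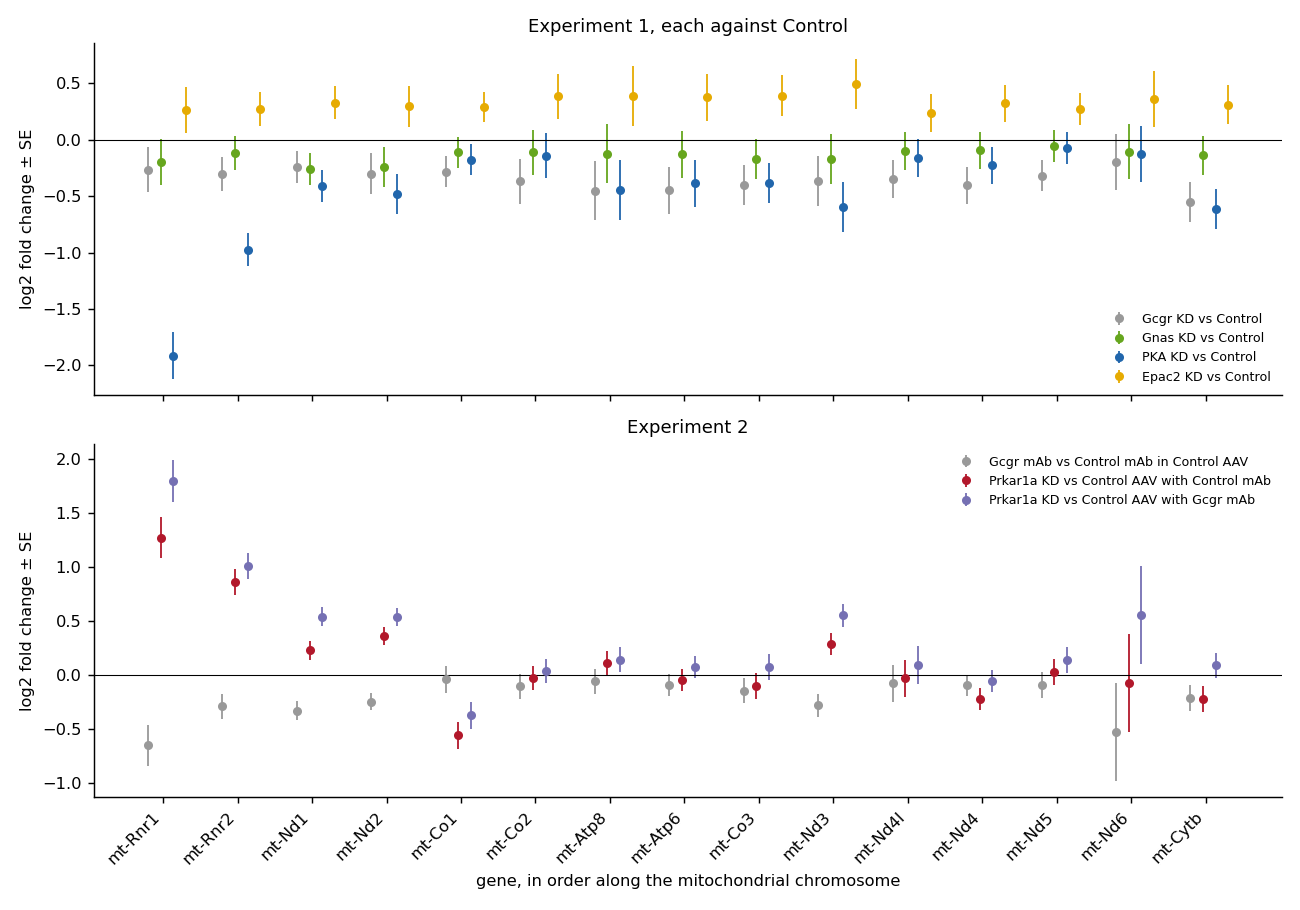
Log2 fold changes (vertical axes, points, with bars of ± 1 SE) of the 2 rRNAs and 13 mRNAs in their order along the mitochondrial chromosome, for the 4 knockdowns of experiment 1 and 3 contrasts of experiment 2. In PKA KD and Prkar1a KD the rRNAs on the left have the largest changes, and with Prkar1a KD mt-Co1 lies below 0 (-0.56 with Control mAb, -0.37 with Gcgr mAb) while mt-Nd1 and mt-Nd2 lie above it.

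With Prkar1a KD the mRNAs of experiment 2 split in direction. 3 mRNAs were called higher and 1 lower under each antibody, again as a description. Of all tested genes, 29.3% were called higher and 26.9% lower under Control mAb (56.2% in either direction). Under Gcgr mAb 26.5% were called higher and 26.6% lower (53.1% in either direction). The higher ones were mt-Nd1 (0.23 ± 0.09 with Control mAb, 0.54 ± 0.09 with Gcgr mAb), mt-Nd2 (0.36 ± 0.08 and 0.53 ± 0.08) and mt-Nd3 (0.29 ± 0.11 and 0.55 ± 0.11), all of complex I. mt-Co1, of complex IV, was the lower one (-0.56 ± 0.13 and -0.37 ± 0.13). mt-Nd2 lay between 9173 and 14230 CPM (median 11950) in Control AAV with Control mAb and between 13470 and 20070 (median 14190) in Prkar1a KD with Control mAb, with 10 of 10 libraries above the control median. With Gcgr mAb the mt-Nd1 and mt-Nd2 values of Prkar1a KD (9088 to 11250 and 13360 to 16590 CPM) lay above those of Control AAV (5085 to 9033 and 7569 to 13150) without overlap, as did 6% of all tested genes. mt-Co1 lay between 30970 and 55910 CPM (median 46170) in Control AAV with Control mAb and between 22010 and 44260 (median 28610) in Prkar1a KD with Control mAb, with 10 of 10 below the control median.

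Since the mRNAs hold a large part of each library, their make-up was also taken within the mitochondrial mRNA counts. mt-Co1 held 25.3% ± 1.8 (SD, n = 10) of them in Control AAV with Control mAb and 26.9% ± 1.1 with Gcgr mAb, against 18.8% ± 1.5 and 20.1% ± 2.5 in the corresponding Prkar1a KD groups. mt-Nd2 held 6.74% ± 0.23 and 6.18% ± 0.42, against 9.57% ± 0.78 and 8.88% ± 1.3. The Prkar1a KD and control values of mt-Co1 with Control mAb did not overlap (15.4% to 20.2% against 20.8% to 26.9%). In experiment 1 mt-Co1 held 29.5% ± 1.2 in Control and 32.2% ± 2.6 in PKA KD, and mt-Nd2 5.94% ± 0.53 and 5.16% ± 0.51. The total mRNA share differed little between these groups. It was 16.7% ± 1.7 in Control AAV with Control mAb and 16.7% ± 2.5 in Prkar1a KD with Control mAb, and 11.7% ± 2.1 in Control and 10.2% ± 2.3 in PKA KD.

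The other mRNAs of the Prkar1a KD contrasts had log2 fold changes between -0.23 and 0.11 with Control mAb and between -0.06 and 0.55 with Gcgr mAb. The ATP synthase genes mt-Atp6 and mt-Atp8 stood at -0.05 and 0.11 with Control mAb and 0.07 and 0.14 with Gcgr mAb, and mt-Co2 and mt-Co3 of complex IV at -0.03 and -0.10, and 0.04 and 0.07. mt-Cytb stood at -0.23 and 0.09. mt-Nd4 had -0.22 with Control mAb and was called in 4 of the alternative settings, and mt-Nd1 and mt-Nd3 were not called with Control mAb in a model of only those groups. mt-Nd6, the light-strand mRNA, had the widest spread, from 184 to 1257 CPM (median 405) in Control AAV with Control mAb and from 191 to 1661 (median 299) in Prkar1a KD with Control mAb, and its changes of -0.07 ± 0.45 and 0.55 ± 0.45 were small beside that spread.

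Among the tested contrasts, Gcgr KD called 1 of 13 mRNAs and the Gcgr mAb in Control AAV 1 of 13, where 7.23% and 8.19% of all tested genes were called, shares near those of the members. mt-Cytb fell by 0.56 ± 0.18 on the log2 scale (edgeR, adjusted p = 0.0422), from 9592 to 19350 CPM (median 13530) in Control to 6370 to 11950 (median 9760), with 10 of 10 libraries below the Control median. The adjusted p lay between 0.00557 and 0.055 over 8 settings and missed the threshold with no filter on low counts. All 13 mRNAs had a negative log2 fold change with Gcgr KD, and the median was -0.36 against 0.01 for all tested genes. The mRNA share of the total count was 9.73% ± 1.6 in Gcgr KD against 11.7% ± 2.1 in Control. With the Gcgr mAb in Control AAV mt-Nd1 fell by 0.33 ± 0.09 (adjusted p = 0.0141, edgeR), from 6657 to 10030 CPM (median 9309) to 5085 to 9033 (median 7228), with 10 of 10 libraries below the control median. Its adjusted p lay between 0.0056 and 0.0679 and missed the threshold where the model held only the groups compared. mt-Nd2 had -0.25 ± 0.08 (adjusted p = 0.0543, edgeR, range 0.0353 to 0.135, called in 4 of 8 settings). All 13 mRNAs had a negative log2 fold change there as well, with a median of -0.11.

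Gnas KD and Epac2 KD called 0 of 13 mRNAs by edgeR, DESeq2 and limma-voom. At an unadjusted p under 0.05, 0 mRNAs passed with Gnas KD in any of these tools, and with Epac2 KD 4 passed in edgeR, 7 in DESeq2 and 1 in limma-voom. With Gnas KD the median log2 fold change was -0.12 and all 13 values were negative. With Epac2 KD all 13 were positive with a median of 0.33, between 0.24 and 0.50, and the median was 0.15 without replicate 5, a library whose mitochondrial mRNAs held 24.6% of the total count (chosen after its values were seen). The direction of all 13 mRNAs held in both contrasts with other scaling (RLE, or TMM without the mitochondrial genes). By library the directions were uneven. With Gnas KD from 5 of 10 libraries (mt-Co1, mt-Atp6, mt-Nd4 and mt-Cytb) to 10 of 10 (mt-Nd1) lay below the Control median. With Epac2 KD from 5 of 10 (mt-Nd4 and mt-Cytb) to 8 of 10 (mt-Nd1) lay above it. 0 mRNAs were called for the antibody in Prkar1a KD or for the interaction by any of the tools, with 0 and 1 at an unadjusted p under 0.05 in edgeR.

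The tRNAs were a very small and uneven part of the libraries. Of all tRNA counts in experiment 1 (34562), mt-Tl1 held 78.5% and mt-Tm 16.2%, while 14 of 22 tRNAs had under 50 counts over the 50 libraries and mt-Th and mt-Ts2 had none. In experiment 2 (91568 counts) mt-Tl1 held 72.4%, mt-Tm 14.6% and mt-Tq 3.27%, and every tRNA had counts. mt-Tl1 lies between mt-Rnr2 and mt-Nd1, as in the second junction printed above, and mt-Tv, in the first, had 1 count in experiment 1 and 40 in experiment 2. The filter on low counts ran over all groups of an experiment, so a rare tRNA could pass through the groups where it was high. With only the 2 groups of a contrast kept, 3 tRNAs passed with Gcgr KD, 4 with Gnas KD, 2 with PKA KD and 3 with Epac2 KD. In experiment 2, 7 passed with the Gcgr mAb in Control AAV, 8 with Prkar1a KD under Control mAb and 7 under Gcgr mAb. mt-Tw passed with Gnas KD alone in experiment 1, and mt-Tt, mt-Td, mt-Tg and mt-Ts1 passed in neither Prkar1a KD contrast. Counts of called tRNAs are therefore a description. A tRNA count here can come from a free tRNA or from a longer RNA that still holds it, which these counts do not separate.

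Epac2 KD gave tRNA calls in experiment 1, with 3 of 4 tested tRNAs higher (1.82% of all tested genes were called higher), and 2 of 3, without mt-Tw, in a model of only these groups. mt-Tm rose from 3.19 to 5.34 CPM (median 4.02) in Control to 4.61 to 9.02 (median 6.77), a log2 change of 0.70 ± 0.15 (edgeR, adjusted p = 0.00127, range over 8 settings 0.000176 to 0.00172). The other rises rested on few counts. mt-Ti, with 3 to 23 counts per Control library, rose from a median of 0.404 to 0.793 CPM (1.11 ± 0.27). It passed the filter with Control beside Gcgr KD, Gnas KD or Epac2 KD, but not beside PKA KD, where it was not higher. Its passing could thus rest on a group where it was high, so its change is a description, with no test. mt-Tw, with 2 to 13 counts per Control library, rose from 0.275 to 0.623 CPM (1.18 ± 0.31). It did not pass the filter with only these groups kept, so its change is a description, with no test. In all 3, 10 of 10 Epac2 KD libraries lay above the Control median and the groups overlapped. mt-Tl1 had 0.62 ± 0.21 (edgeR, adjusted p = 0.0801, range 0.0356 to 0.122, called in 2 of 8 settings), at 17.3 to 54.3 CPM (median 33.6) against 13.1 to 34.1 (median 22.6). Without replicate 5 of Epac2 KD the change was 0.67 for mt-Tm (edgeR, adjusted p = 0.00381). For mt-Ti it was 0.98, as a description. For mt-Tw the change was 1.09, again as a description.

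Gnas KD called 1 of 4 tRNAs, beside 6.83% of all tested genes called higher. mt-Tw rose from 0.0984 to 0.480 CPM (median 0.275) in Control to 0.167 to 1.202 (median 0.588), a log2 change of 1.12 ± 0.31, with 9 of 10 libraries above the Control median. It passed the filter with only Gnas KD and Control kept and not with Control beside any other knockdown. Its passing thus rested on a group where it was high, so its change is a description, with no test. With Gcgr KD 0 of 4 and with the Gcgr mAb in Control AAV 0 of 12 tRNAs were called by edgeR, DESeq2 and limma-voom, with 0 at an unadjusted p under 0.05. In PKA KD, as a description, mt-Tl1 (-0.56 ± 0.21) and mt-Tm (-0.46 ± 0.15) were called lower. mt-Tl1 lay between 8.42 and 22.3 CPM (median 13.5) and mt-Tm between 1.91 and 4.43 (median 2.88), both overlapping Control. mt-Ti (-0.16) and mt-Tw (0.48) were not called in PKA KD.

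**Figure D4:**
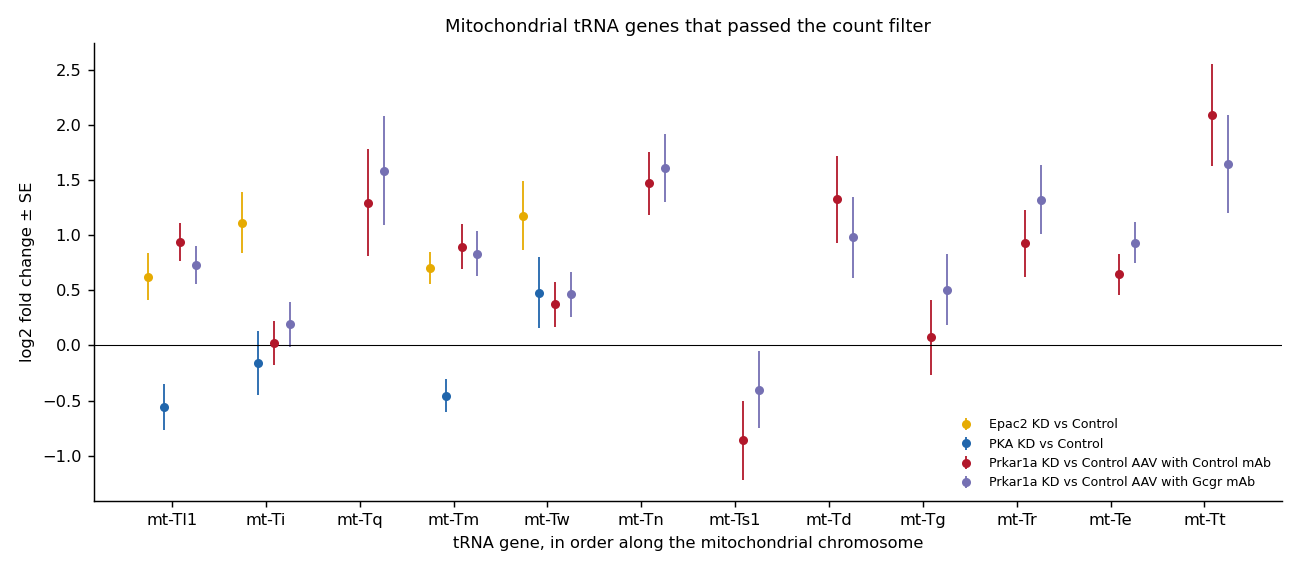
Log2 fold changes (vertical axis, points, with bars of ± 1 SE) of the 12 tRNA genes that passed the count filter in experiment 2, in chromosome order. The knockdowns of Epac2 and PKA appear for the 4 tRNAs tested in experiment 1. With Prkar1a KD mt-Ts1 lies below 0 (-0.86 with Control mAb), and mt-Tt, mt-Td, mt-Tg and mt-Ts1 did not pass the filter with only the groups of either contrast kept.

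With Prkar1a KD, 8 of 12 tested tRNAs were called higher under each antibody, and 1 was called lower under Control mAb, as a description. Of all tested genes, 29.3% and 26.5% were called higher under the 2 antibodies and 26.9% lower under Control mAb. With only the groups of each contrast kept, 6 of 8 and 5 of 7 tRNAs were called higher and 0 lower. mt-Tl1 rose from 33.4 to 103 CPM (median 74.9) to 81.4 to 189 (median 148) with Control mAb, a log2 change of 0.94 ± 0.17, and by 0.73 ± 0.17 with Gcgr mAb. mt-Tm changed by 0.90 ± 0.20 and 0.83 ± 0.20. mt-Tt (2.10 and 1.65) and mt-Tn (1.47 and 1.61) had few counts, 0 to 6 and 1 to 20 per library in Control AAV with Control mAb, and mt-Tt did not pass the filter with only the groups of either contrast kept. mt-Td (1.33 and 0.98), mt-Tq (1.29 and 1.59), mt-Tr (0.93 and 1.32) and mt-Te (0.64 and 0.93) were called as well. They lie on both strands, mt-Tn, mt-Tq and mt-Te on the light-strand transcript. mt-Ts1, a tRNA-Ser gene on the light strand that lies opposite the last 3 bases of mt-Co1, had -0.86 and -0.40. Its lower level with Control mAb was no longer called without replicate 9 of Prkar1a KD with Control mAb (-0.83), nor with limma-voom, with no filter or with a replicate block. mt-Tt, mt-Tq and mt-Td with Gcgr mAb were not called with limma-voom, nor was mt-Tq with Control mAb under a replicate block.

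The light-strand genes mt-Nd6 and mt-Tq, which passed the count filter together in experiment 2, varied in opposite directions among libraries of the same group. mt-Tn, mt-Ts1 and mt-Te, also on the light strand, passed too, and no r was taken for them. In Control AAV with Control mAb the library highest in mt-Nd6 (1257 CPM) was also highest in mt-Te (3.53). The same held with Gcgr mAb in Control AAV (1091 and 4.01 CPM) and in Prkar1a KD with Control mAb (1661 and 7.91 CPM). In Prkar1a KD with Gcgr mAb the library highest in mt-Nd6 was not (mt-Nd6 1036 and mt-Te 3.42 CPM, against a highest mt-Te of 6.94). In Control AAV with Control mAb mt-Nd6 ran from 184 to 1257 CPM and mt-Tq, the tRNA-Gln printed above, from 0.547 to 5.62. Over those 10 libraries r on the log2 scale (pseudocount 0.1 CPM) was -0.941 and rho -0.782. With Gcgr mAb in Control AAV they were -0.858 and -0.879. In Prkar1a KD with Gcgr mAb they were -0.804 and -0.661. In Prkar1a KD with Control mAb they were -0.651 and -0.406, and r turned to 0.121 without the 2 libraries farthest from the mt-Nd6 median, so it rests on those. Without 2 libraries the other 3 groups gave -0.895, -0.922 and -0.663. mt-Nd6 stood at 450 CPM or more in 14 of 40 libraries, found in all 4 groups (5, 3, 2 and 4). mt-Tq had 3 to 212 counts per library. The pair was picked after the values were seen, so r and rho are a description, with no test.

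**Figure D5:**
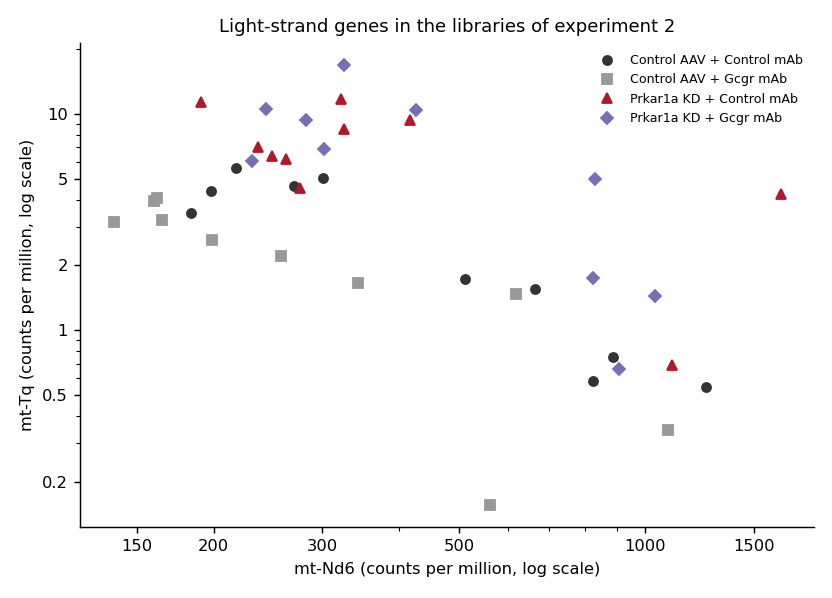
Levels of mt-Nd6 and mt-Tq (CPM, log axes) in the 40 libraries of experiment 2, 1 point per library, marked by group. Libraries with more mt-Nd6 tend to have less mt-Tq (r from -0.941 to -0.651 by group, the last resting on 2 libraries), and 14 libraries lie at 450 CPM of mt-Nd6 or more.

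The nuclear genes that make, process and use mitochondrial RNA were taken as lists by function. Of all tested genes, 2.9% were called higher and 4.34% lower with Gcgr KD, 6.83% and 8.32% with Gnas KD, 1.82% and 2.74% with Epac2 KD and 2.92% and 5.27% with the Gcgr mAb in Control AAV. They were 17.7% and 14.8% in PKA KD, and 29.3% and 26.9%, and 26.5% and 26.6%, with Prkar1a KD under Control mAb and Gcgr mAb. Of 20 genes of mitochondrial DNA transcription and replication, 1 was called higher and 2 lower with Gcgr KD, 0 and 4 with Gnas KD, 0 and 0 with Epac2 KD, and 0 and 4 with the Gcgr mAb in Control AAV. The list had 0 calls with Epac2 KD by edgeR, DESeq2 and limma-voom, with 2, 1 and 2 genes at an unadjusted p under 0.05. Tfam, which packages mitochondrial DNA and activates its promoters, fell by 0.27 with Gnas KD and by 0.14 with the antibody (edgeR, adjusted p = 7.57e-05 and 0.0361). Twnk, the replicative helicase, fell by 0.26 and 0.20 (0.000675 and 0.0108). In PKA KD 1 was called higher and 8 lower, and with Prkar1a KD 6 and 4 under Control mAb and 9 and 2 under Gcgr mAb, given as a description. Polrmt, the mitochondrial RNA polymerase, had 0.42 and 0.37 with Prkar1a KD, Twnk 0.59 and 0.83, and Mterf2, of the mTERF family, -1.46 and -0.98.

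Of 23 genes of RNA processing, polyadenylation and decay, 0 were called higher and 2 lower with Gcgr KD, 0 and 6 with Gnas KD and 1 and 1 with Epac2 KD. In Gnas KD Hsd17b10 and Trmt10c, which are subunits of the nuclease that cuts the leading ends of the tRNAs, fell by 0.42 and 0.32 (edgeR, adjusted p = 0.00321 and 0.00693). Prorp, its catalytic subunit, fell by 0.34 with Epac2 KD (edgeR, adjusted p = 0.00206). With the Gcgr mAb in Control AAV 0 were called in either direction by edgeR, DESeq2 or limma-voom, with 1, 2 and 2 at an unadjusted p under 0.05. As a description, 1 was called higher and 5 lower in PKA KD, where Hsd17b10 had -0.72 and Slirp, which stabilizes mitochondrial mRNAs, 0.45. With Prkar1a KD 15 were called higher and 6 lower under Control mAb (median log2 fold change 0.25, against 0.02 for all tested genes), and 14 and 2 under Gcgr mAb (0.20, against -0.01). Trmt10c had 0.59 and 0.46 and Hsd17b10 -0.65 and -0.59.

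The mitochondrial ribosome was measured through 83 protein genes. With Gcgr KD 0 rose and 8 fell, with Gnas KD 0 and 7, with Epac2 KD 1 and 1, and with the Gcgr mAb in Control AAV 0 and 5. Mrpl18 fell by 0.39 ± 0.07 with Gcgr KD (edgeR, adjusted p = 4.34e-05) and Mrpl11 by 0.35 ± 0.06 with Gnas KD (9.73e-06). In PKA KD, as a description, 4 were called higher and 24 lower, and with Prkar1a KD 6 and 25 under Control mAb and 19 and 13 under Gcgr mAb, with list medians of -0.08, -0.07 and 0.03. Of 26 genes of rRNA modification and ribosome assembly, 2 were called higher and 7 lower in PKA KD, and 7 and 6, and 7 and 3, with Prkar1a KD.

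Nuclear subunits of the respiratory complexes, whose partners are the mitochondrial mRNAs, were taken in 2 lists. Of 46 complex I genes, 10 fell with Gcgr KD, 8 with Gnas KD and 7 with the Gcgr mAb in Control AAV, and 0 rose in any of these. With Epac2 KD 4 rose and 0 fell. Ndufc2 fell by 0.60 ± 0.07 with Gnas KD (edgeR, adjusted p = 4.01e-08). Of 34 genes of complexes III, IV and V, 14 fell with Gcgr KD, 9 with Gnas KD and 8 with the antibody, and 0 rose, while 4 rose and 0 fell with Epac2 KD. Uqcrfs1, the iron-sulfur subunit of complex III, fell by 0.32 ± 0.06 with Gnas KD and by 0.25 ± 0.05 with the antibody, and rose by 0.22 ± 0.06 with Epac2 KD (edgeR, adjusted p = 3.62e-05, 0.0015 and 0.0103). With Prkar1a KD, as a description, complex I counted 5 higher and 22 lower under Control mAb and 11 and 3 under Gcgr mAb.

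Among 11 tested regulators of mitochondrial gene expression, 0 were called with Gcgr KD, Gnas KD or the Gcgr mAb in Control AAV by edgeR, DESeq2 or limma-voom, with 0, 1 and 1 at an unadjusted p under 0.05 in each tool. With Epac2 KD Esrra, an orphan nuclear receptor that drives respiratory genes, rose by 0.39 (edgeR, adjusted p = 0.048), a call that limma-voom did not make. As a description, Ppargc1a, a coactivator of mitochondrial biogenesis that cAMP induces in liver, had log2 fold changes of 0.51 in PKA KD and 1.77 and 1.999 with Prkar1a KD. Ppara, a nuclear receptor for fatty acid oxidation genes, had -1.16, -1.06 and -0.82.

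Markers of other liver cell types moved in some of the same groups. With Prkar1a KD under Gcgr mAb 8 of 11 Kupffer cell and macrophage markers, 10 of 11 endothelial and 6 of 11 stellate cell markers were called lower and 0 higher. Under Control mAb 0, 2 and 3 were called lower and 1, 0 and 1 higher. Of all tested genes, 26.5% were called higher and 26.6% lower with Prkar1a KD under Gcgr mAb, and 29.3% and 26.9% under Control mAb. These shares were 17.7% and 14.8% in PKA KD, and 6.83% were called higher with Gnas KD. In PKA KD 1 endothelial marker was called lower and 0 Kupffer or stellate cell markers were called (edgeR, with 0 and 1 at an unadjusted p under 0.05), and with Gnas KD 4 stellate cell markers were called higher. Of 6 tested cholangiocyte markers 3 were called higher in PKA KD (list median 0.66 on the log2 scale) and 2 with Gnas KD, and their sum was 38.8 to 315 CPM (median 72.3) in PKA KD against 28.4 to 104 (median 38.0) in Control. Adipocyte markers summed to medians of 0.454 CPM in PKA KD and 12.5 in Control, and the 1 tested was called lower. Erythroid markers summed to medians of 160 and 269 CPM in the Prkar1a KD groups, against 814 and 541 in their controls. Of the 18 hepatocyte markers, 2 were called higher and 7 lower in PKA KD, 6 and 11 with Prkar1a KD under Control mAb and 7 and 11 under Gcgr mAb. Hepatocyte marker sums in experiment 1 overlapped, at 130000 to 172000 CPM in Control and 118000 to 152000 in PKA KD. The part of these cell types in the mitochondrial values was not tested.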

How the data were processed

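Liver RNA of 90 samples was measured by RNA-seq. Per the labels' protocols, RNA was purified with mRNA beads and made into strand-specific libraries with PCR. bcl2fastq 2.17, FastQC and the build GRCm38/mm10 were used, per the submitters' processing notes. The aligner, the counter and how strand and shared reads were handled were not given in the sources used here. What the authors deposited were expected counts per gene, of which 8.69% and 8.55% had a fractional part. They were rounded to whole counts, and 0 columns were left unused.

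Each experiment was fitted over all its groups with edgeR 4.0.16 (filterByExpr, TMM, robust quasi-likelihood F test, Benjamini-Hochberg over 13574 and 12847 genes). The SE is the log2 fold change divided by the root of F. Genes were matched by Entrez identifier to the mitochondrial chromosome. Alternatives were RLE scaling, TMM without mitochondrial genes, no filter, DESeq2 1.42.0, limma-voom 3.58.1, a replicate block, and a model of only the groups compared. The script was tested on simulated counts. Members and gene lists were chosen with earlier results of these data known. Named were the mitochondrial genes, the targeted genes, and up to 3 genes per list, contrast and direction with the largest change, taken from called genes whose mean log2 CPM reached 1. Ppargc1a, Ppara, Tfam and Twnk, where outside that rule, were named for their function. Counts limit the precision of the tRNAs, and PCR copies were not separated from molecules.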

Additional observations from a re-analysis of the deposited data

Results flagged for a closer look

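Class shares, the 13 mRNAs, the 2 rRNAs, mt-Tl1 and mt-Tm were checked in each group for a library far from the other 9 by Dixon's criterion. It picked out 28 of 180 sets of values, where chance picks out about 1 in 20. Replicate 5 of Epac2 KD was the highest for the mRNA share (24.6% of the total count), mt-Rnr2 (1690 CPM), mt-Nd1 (13200), mt-Co1 (82800), mt-Co3 (21400), mt-Nd4l (9770), mt-Nd4 (25900), mt-Nd5 (18600), mt-Nd6 (383) and mt-Cytb (38400).

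In PKA KD, replicate 5 was the highest for the rRNA share (0.161%), mt-Rnr1 (601 CPM) and mt-Rnr2 (964). The highest mt-Nd4l (10100 CPM) and mt-Nd5 (13700) of that group were in replicate 3. Control replicate 6 of experiment 1 had the highest rRNA share (0.213%), Control replicate 10 the highest mt-Nd3 (369 CPM), and Gnas KD replicate 10 the highest mt-Nd6 (168 CPM).

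In experiment 2, replicate 10 of Control AAV with Control mAb was the lowest of its group for the tRNA share (0.00545%), mt-Atp8 (5180 CPM) and mt-Nd4l (1010). Replicate 9 of Control AAV with Gcgr mAb was the highest for the mRNA share (20.2%), mt-Co1 (58600 CPM), mt-Nd4 (21000) and mt-Nd6 (1090). Replicate 10 of Prkar1a KD with Control mAb was the highest for mt-Nd3 (3770 CPM). Replicate 7 of Prkar1a KD with Gcgr mAb was the lowest for mt-Rnr1 (1610 CPM) and mt-Co3 (8550).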

How the results depend on the processing

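Of 70 counts of called mitochondrial genes under alternative settings, 67 stayed within 1.5 times the main count. Gcgr KD had 1 called mitochondrial gene in the main setting, 0 with no filter and 5 in a model of only its own groups (mt-Rnr2, mt-Nd4l, mt-Nd4, mt-Nd5 and mt-Cytb, all lower), and the Gcgr mAb in Control AAV had 2 and then 1 in such a model, where all called genes went from 1052 to 608. limma-voom reversed 3 log2 fold changes near 0, none of them called: mt-Tm with Gcgr KD (-0.035), mt-Tl1 with the Gcgr mAb in Control AAV (0.001765) and mt-Nd4l with Prkar1a KD under Control mAb (0.063). The cause was not tested. Shares of the nuclear rather than the total count were, by construction, higher: mRNA 20.3, 19.0, 20.5 and 20.6% in the 4 groups of experiment 2, rRNA 0.186% in Control of experiment 1 and 0.692% and 1.58% in Control AAV and Prkar1a KD with Control mAb, and tRNA 0.0119, 0.0119 and 0.0247% in the first 3 groups of experiment 2. With PKA KD replicate 5 left out, mt-Co3 (-0.47) was called too. Deviations of same-numbered samples had a median correlation of 0.04 over 100 pairs (-0.389 to 0.568) in experiment 1 and -0.00487 over 60 (-0.315 to 0.4) in experiment 2. Of the pairs, 37 and 19 were over 0.1. The best match of a sample had its own number in 10 of 50 and 3 of 40 samples. The labels do not say whether the numbers pair the samples, and these values cannot exclude it. With the replicate block 1, 4 and 3 mitochondrial genes were called with Gcgr KD, Epac2 KD and the Gcgr mAb in Control AAV, against 1, 3 and 2. Depth limits the tRNAs, of which 14 and 6 had under 50 counts per experiment.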

Other observations

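Within the PKA KD group, replicates 5 and 3 held the highest mt-Rnr1 (601 and 336 CPM) and also the highest Prkaca (23.4 and 16.8 CPM). The other 8 libraries had mt-Rnr1 between 122 and 189 CPM and Prkaca between 7.34 and 13.9. Replicate 2 had the lowest mt-Rnr1 and the lowest Prkacb (6.73 CPM), but the lowest Prkaca was in replicate 6 (7.34), where mt-Rnr1 was 171 CPM. Prkacb was highest in replicate 5 (13.8 CPM). In replicate 3 it was 10.59 CPM, below replicates 6 (12.05) and 7 (11.23). These values were picked after they were seen and come from the levels that chose the set, so they are given with no test.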
